A study of Mus musculus with 14 samples.

Results

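The 41 genes described here build and police the mitotic spindle: mitotic kinases, the chromosomal passenger complex, the spindle checkpoint, the kinetochore, spindle motors, and proteins of cytokinesis and mitotic exit, with Top2a and Mki67 beside them. They were chosen by name, out of 18193 genes with a probe set annotated to a single gene, and all 41 had such a probe set. Where a gene had several, the one that varied most over the 14 arrays (by SD) stood for it, whatever the labels. All 41 passed the filter on SD and were tested among 11812 genes.

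SCp2 is a line of mouse mammary epithelial cells. Cells were plated in 35 mm dishes in DMEM with 2% fetal calf serum and kept for 3 days as controls or with MMP3, a secreted metalloproteinase whose substrates include matrix proteins and E-cadherin. Experiment A held 1 control and 1 MMP3 dish at 50K, 100K and 250K cells plated, 6 arrays in all, and experiment B held the same 6 conditions plus a control and an MMP3 dish at 25K, 8 arrays in all. No genetic change is named in the labels, and all dishes came from this line. Each dish was measured on 1 Affymetrix mouse expression array. The sources used here give neither the dose of MMP3 nor the vehicle of the controls. Nothing in the labels says how the dishes of an experiment were related, so p-values reflect how far these dishes differ, which may be technical.

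A cell entering mitosis condenses its chromosomes and attaches them through kinetochores to spindle microtubules. The spindle checkpoint holds back the anaphase-promoting complex until every chromosome is attached, and Cdk1, Plk1 and the Aurora kinases time these steps. The genes are transcribed mainly in G2 and mitosis, so in a culture their mRNA is commonly read as a sign of how many cells divide. In RNA from a whole dish, fewer dividing cells and less RNA per dividing cell cannot be told apart.

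All values below are log2 expression relative to the median of the same probe set over the 14 arrays. They give differences between dishes and carry no level, so no gene can be set above another and the cell type cannot be checked by levels. Of the marker genes listed for this purpose, 4 of 6 epithelial, 2 of 6 fibroblast, 2 of 5 macrophage, 0 of 4 endothelial and 1 of 4 adipocyte genes varied enough to be tested. Within a group, values are given in order of rising density.

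The arrays differed in ways that touch every result on experiment B. Ifit1, an interferon-induced gene, lay between -2.98 and -2.91 on the 3 control arrays of A and between 2.83 and 4.21 on its 3 MMP3 arrays. The control-labelled arrays of B read -2.93, 3.71, -2.93 and 4.26, and the MMP3-labelled ones -2.83, 4.53, -2.97 and 5.15. On 4 arrays of B (control 50K, control 250K, MMP3 25K and MMP3 100K) Ifit1 thus lay on the side that the other label had in A. Epcam, an epithelial adhesion protein, showed the same alternation, at -0.46, 0.64, -0.63 and 0.64 on the controls of B and -0.45, 0.66, -0.43 and 0.43 on its MMP3 arrays. All comparisons below use the labels as given. The B array labelled MMP3 100K also stood apart in spread, with an SD over all genes of 1.29 against 0.343 to 0.622 on the other 13 arrays, and its actin 3' minus 5' probe difference was 0.654 against -0.339 to 0.192. It is described apart, and results that include it are given with and without it.

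Genes of this program commonly carry a cell cycle genes homology region, which the DREAM and MuvB complexes use, and CCAAT boxes, which NF-Y binds. RefSeq promoters of GRCm38.p6, from 250 bases before to 50 after each start, were matched for 35 of the 41 genes by symbol. Incenp, Aurkb, Zwilch, Kif20a, Tpx2 and Spc24 were not matched. The core of the homology region (TTTGAA or TTCGAA, on either strand) was present in 29 of the 35 genes, 82.9%, against 21.7% of 27025 genes in the same table. A CCAAT box on either strand was present in 77.1% against 41.1%, and both motifs in 68.6% against 8.61%. At least 2 CCAAT boxes were found in 54.3% of the members and 13.3% of all genes. The motifs overlapped at 2 places in the members' promoters. Below are the 250 bases before the start of the 6 members with the largest lower values under MMP3 in A among those with a core there, shown because both motifs can be seen in each. Capitals mark the motifs, read 5′ to 3′ on the gene's strand.
Kif11: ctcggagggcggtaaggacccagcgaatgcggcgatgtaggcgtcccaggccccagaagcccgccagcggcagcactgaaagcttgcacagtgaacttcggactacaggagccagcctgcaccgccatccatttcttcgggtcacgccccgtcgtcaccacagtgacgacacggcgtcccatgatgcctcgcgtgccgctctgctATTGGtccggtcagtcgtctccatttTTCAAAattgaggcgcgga
Bub1b: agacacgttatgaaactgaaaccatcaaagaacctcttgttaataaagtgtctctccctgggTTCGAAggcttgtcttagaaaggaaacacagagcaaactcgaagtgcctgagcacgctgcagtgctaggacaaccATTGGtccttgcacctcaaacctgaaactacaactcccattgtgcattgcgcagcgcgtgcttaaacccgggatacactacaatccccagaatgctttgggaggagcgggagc
Espl1: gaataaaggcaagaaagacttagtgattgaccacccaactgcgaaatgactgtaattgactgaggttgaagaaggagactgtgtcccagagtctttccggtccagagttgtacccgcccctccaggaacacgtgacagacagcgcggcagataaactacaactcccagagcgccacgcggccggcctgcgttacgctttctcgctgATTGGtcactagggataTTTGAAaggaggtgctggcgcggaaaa
Cdc20: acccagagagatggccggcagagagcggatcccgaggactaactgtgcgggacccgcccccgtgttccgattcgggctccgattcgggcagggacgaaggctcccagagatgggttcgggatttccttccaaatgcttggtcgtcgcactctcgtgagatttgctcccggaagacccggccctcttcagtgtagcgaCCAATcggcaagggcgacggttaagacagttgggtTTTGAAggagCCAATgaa
Top2a: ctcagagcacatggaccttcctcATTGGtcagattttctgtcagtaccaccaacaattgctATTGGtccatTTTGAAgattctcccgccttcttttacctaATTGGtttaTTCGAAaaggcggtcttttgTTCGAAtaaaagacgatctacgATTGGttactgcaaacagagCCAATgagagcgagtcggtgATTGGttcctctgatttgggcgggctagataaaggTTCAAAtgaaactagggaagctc
Bub3: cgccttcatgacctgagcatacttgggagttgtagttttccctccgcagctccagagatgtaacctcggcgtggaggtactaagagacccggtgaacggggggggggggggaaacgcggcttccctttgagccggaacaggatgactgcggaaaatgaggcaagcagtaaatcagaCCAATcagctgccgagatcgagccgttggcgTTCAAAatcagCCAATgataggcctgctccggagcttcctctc
Kif11 lies at chr19:37376132-37376381 on the plus strand, Bub1b at chr2:118597961-118598210 on plus, Espl1 at chr15:102296043-102296292 on plus, Cdc20 at chr4:118437344-118437593 on minus, Top2a at chr11:99024190-99024439 on minus and Bub3 at chr7:131560120-131560369 on plus. The core begins 19 bases before the start in Kif11, 27 in Espl1, 18 in Cdc20 and 43 in Bub3. In Bub1b it begins 188 bases before the start. Top2a holds 4 cores and 6 CCAAT boxes, the most of the 6. These matches describe sequence alone, and no binding was measured.

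Under MMP3 in experiment A, spindle and kinetochore genes were lower as a group. Of the 41 genes, 11 fell at an adjusted p under 0.05 (limma) and 0 rose, against 20.5% of all genes tested called in either direction and 8.34% called lower. The median effect of the 41 was -0.65, against -0.02 over all genes tested, and 40 of the 41 effects were negative. Of the 41, 36 had all 3 MMP3 arrays below all 3 control arrays, as did 23.3% of all genes, and 39 were lower in 3 of 3 pairs matched by density. Taken pair by pair, 56.3%, 59.3% and 51.7% of all genes were lower at 50K, 100K and 250K. The share of all genes lower in all 3 pairs was not counted. The effect is given at 87.4K cells per dish, the mean log2 density of the 14 arrays, and a value of -1 is a halving. In total 31 of the 41 had an unadjusted p under 0.05, as did 38.7% of all genes tested.

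**Figure D1:**
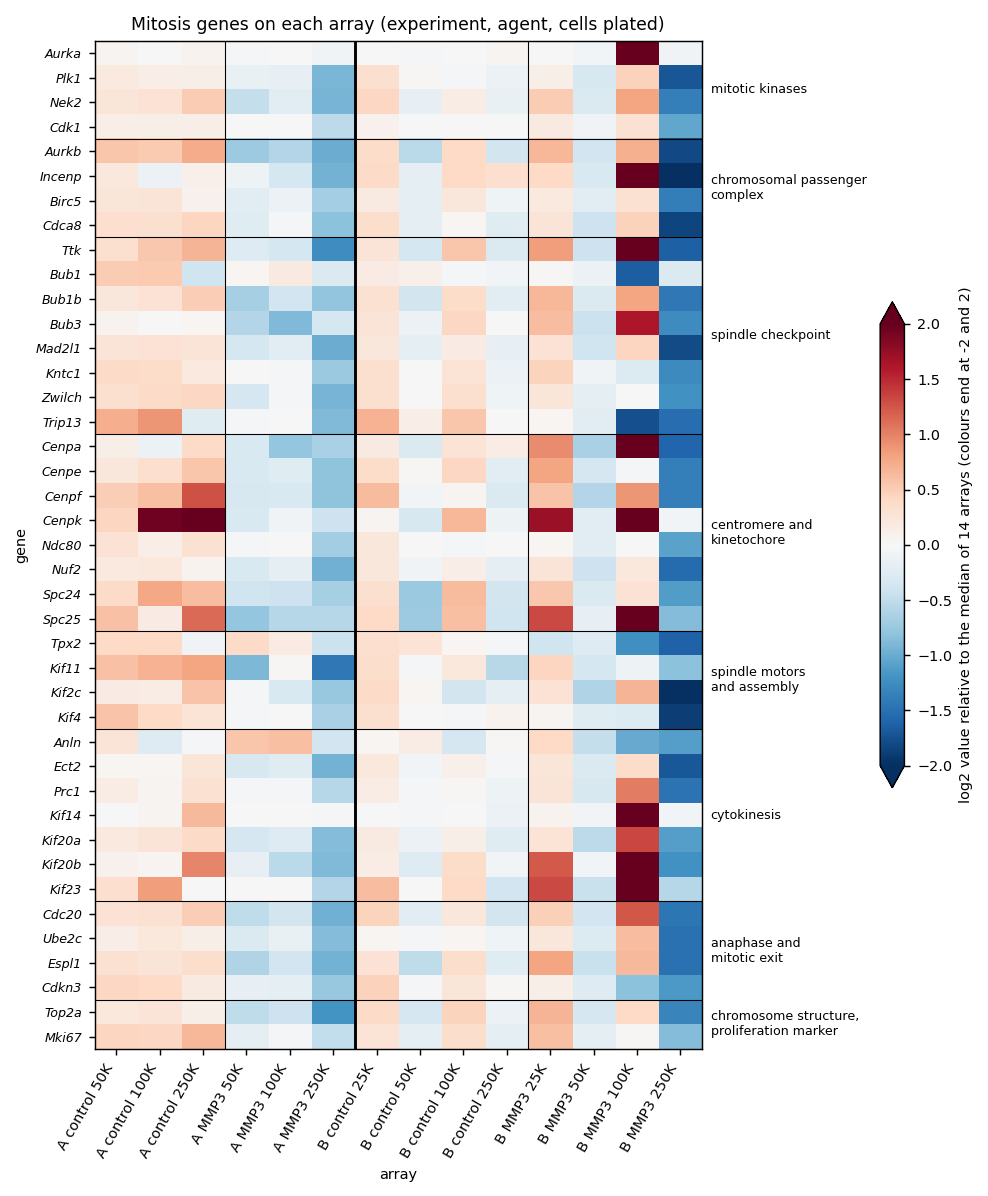
Each row is 1 of the 41 genes, grouped by role, and each column 1 array, with colour for the log2 value relative to the median of 14 arrays. The 3 MMP3 columns of experiment A are mostly blue, the B array labelled MMP3 250K is the lowest array for 34 genes, and the one labelled MMP3 100K is the highest for 23.

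Among the mitotic kinases none of 4 passed the test, at effects of -0.79 to -0.07 in A, and 2 had an unadjusted p under 0.05 (limma). Nek2, a centrosome kinase, was at 0.24, 0.29 and 0.51 on the control arrays and -0.48, -0.21 and -0.93 on the MMP3 arrays of A. The groups did not overlap (effect -0.79, SE 0.19, limma adjusted p = 0.0696). Plk1, which drives entry into and progress through mitosis, was at 0.20, 0.14 and 0.12 on controls and -0.14, -0.17 and -0.92 with MMP3. Cdk1, the kinase that cyclin B activates, was at 0.13, 0.12 and 0.12 on controls and at -0.01, 0.00 and -0.52 with MMP3. Both genes were lowest on the densest MMP3 dish.

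The chromosomal passenger complex corrects faulty attachments and guides cytokinesis. Its kinase Aurkb was at 0.56, 0.52 and 0.74 on the controls of A and -0.72, -0.58 and -0.99 with MMP3. Aurkb fell to 0.403 of the control level (effect -1.31, SE 0.12, limma adjusted p = 0.0192), and the gap between the groups was wider than the spread within either. Cdca8, the borealin subunit, was at 0.34, 0.31 and 0.43 on controls and -0.24, -0.04 and -0.82 with MMP3. Birc5, or survivin, was at 0.24, 0.26 and 0.09 on controls and -0.21, -0.12 and -0.68 with MMP3. Neither Cdca8 (effect -0.64) nor Birc5 (-0.49) passed the test, nor did the scaffold Incenp (-0.43), although all 4 members had an unadjusted p under 0.05.

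Of 8 spindle checkpoint genes 2 fell. Ttk, the kinase Mps1 that recruits checkpoint proteins, was at 0.33, 0.53 and 0.68 on the controls of A and -0.26, -0.35 and -1.24 with MMP3 (effect -0.95, SE 0.14, limma adjusted p = 0.0317). Bub1b, or BubR1, which inhibits Cdc20, was at 0.23, 0.29 and 0.50 on controls and -0.66, -0.39 and -0.80 with MMP3 (effect -0.90, SE 0.14, limma adjusted p = 0.0347). Neither gene's groups overlapped. Trip13, an ATPase that takes the checkpoint complex apart, was at 0.73, 0.88 and -0.25 on controls and -0.03, -0.01 and -0.89 with MMP3, so its groups overlapped (effect -0.78, limma adjusted p = 0.135). Mad2l1, the core Mad2 inhibitor of Cdc20, and Bub3, which docks Bub1 and BubR1 on kinetochores, had effects of -0.70 and -0.68 without passing. Zwilch and Kntc1, of the complex that brings dynein to kinetochores, had -0.71 and -0.50, and the kinase Bub1 had -0.31, also without passing.

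The centromere and kinetochore genes had the lowest median effect of the roles, -0.86, and 3 of 8 fell. Cenpf, a kinetochore protein of late G2, was at 0.49, 0.60 and 1.27 on the controls of A and -0.31, -0.30 and -0.81 with MMP3 (effect -1.09, SE 0.13, limma adjusted p = 0.0265). Spc24, a subunit of the Ndc80 complex that holds microtubules, fell by 1.02 (SE 0.13, limma adjusted p = 0.0266). Cenpe, the kinetochore motor, fell by 0.71 (SE 0.12, limma adjusted p = 0.0394). A larger effect did not always pass. Cenpk, of the constitutive centromere network, was at 0.43, 1.95 and 2.01 on controls and -0.30, -0.06 and -0.41 with MMP3, an effect of -1.50 with an SE of 0.34 (limma adjusted p = 0.0651). Spc25, the partner of Spc24, was at 0.59, 0.16 and 1.13 on controls and -0.78, -0.57 and -0.57 with MMP3 (effect -1.22, SE 0.26, limma adjusted p = 0.0587). In both the control dishes were spread far apart while the groups did not overlap. Cenpa, the centromeric histone H3 variant, had an effect of -0.62, and Nuf2 and Ndc80, the microtubule-binding arm of the Ndc80 complex, had -0.56 and -0.38.

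Of 4 genes for spindle motors and assembly 1 fell. Kif11, or Eg5, which pushes the spindle poles apart, was at 0.59, 0.69 and 0.79 on the controls of A and -0.89, 0.03 and -1.43 with MMP3. By this probe set its controls were close together and its MMP3 dishes far apart (effect -1.34, SE 0.44, limma adjusted p = 0.125). Its other probe sets were at -0.05, 0.05 and -0.64 and at -0.15, 0.12 and -0.50 with MMP3. Their differences of means in A were -0.72 and -0.75, against -1.45 by the probe set chosen. Kif4, a chromosome-bound kinesin, was at 0.57, 0.40 and 0.28 on controls and -0.03, 0.01 and -0.65 with MMP3 (effect -0.59, limma adjusted p = 0.0609). Kif2c, or MCAK, a microtubule depolymerase, was at 0.16, 0.15 and 0.57 on controls and -0.04, -0.31 and -0.76 with MMP3, and it fell by 0.51 (SE 0.09, limma adjusted p = 0.0407). Tpx2, which activates Aurora A on the spindle, had an effect of -0.16.

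Of 7 cytokinesis genes 1 fell and 1 had a positive effect. Kif20b, a kinesin of the midzone, was at 0.08, 0.06 and 0.98 on the controls of A and -0.17, -0.53 and -0.88 with MMP3 (effect -0.69, limma adjusted p = 0.0715). Kif20a, or Mklp2, which brings the passenger complex to the midzone, was at 0.19, 0.25 and 0.38 on controls and -0.34, -0.26 and -0.86 with MMP3, and it fell by 0.66 (SE 0.13, limma adjusted p = 0.0495). Kif23, or Mklp1, of the centralspindlin complex, was at 0.34, 0.84 and 0.01 on controls and -0.01, -0.01 and -0.59 with MMP3 (effect -0.57, limma adjusted p = 0.223). By this probe set the MMP3 dishes at 50K and 100K thus stayed close to the control dish at 250K. By the other probe sets of Kif23 that control dish was at 0.57 and 0.36. The MMP3 dishes at 50K and 100K were at -0.15 and 0.05 by the first of these and -0.07 and -0.19 by the second. Ect2, the activator of RhoA, had an effect of -0.49, Prc1, a microtubule bundler, -0.29, and Kif14, a midzone kinesin, -0.16. Anln, the actin-binding anillin, had an effect of 0.35 that did not pass (limma adjusted p = 0.358).

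Among 4 genes of anaphase and mitotic exit 3 fell. Espl1, or separase, which cuts cohesin, was at 0.31, 0.25 and 0.36 on the controls of A and -0.60, -0.38 and -0.95 with MMP3 (effect -0.89, SE 0.15, limma adjusted p = 0.0396). Cdc20, the activator of the anaphase-promoting complex, was at 0.29, 0.30 and 0.49 on controls and -0.51, -0.38 and -0.96 with MMP3 (effect -0.89, SE 0.14, limma adjusted p = 0.0349). Cdkn3, a phosphatase of Cdk1 and Cdk2, was at 0.42, 0.40 and 0.18 on controls and -0.16, -0.18 and -0.76 with MMP3 (effect -0.65, SE 0.11, limma adjusted p = 0.0393). In each of the 3 genes every MMP3 array lay below every control array. Ube2c, the ubiquitin-conjugating enzyme of the same complex, had an effect of -0.51 (limma adjusted p = 0.112). Top2a, which untangles chromosomes, was at 0.21, 0.26 and 0.11 on controls and -0.51, -0.42 and -1.20 with MMP3 (effect -0.82, SE 0.16). Mki67, the Ki-67 proliferation marker, was at 0.44, 0.42 and 0.66 on controls and -0.17, -0.02 and -0.49 with MMP3 (effect -0.66, SE 0.13). Both lay just outside the threshold, at a limma adjusted p of 0.0508 each.

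The fit to A rests on 2 residual degrees of freedom. Leaving out any 1 of the 6 arrays (control or MMP3, at 50K, 100K or 250K) left 0 of 41 genes called, and 0 of all genes tested, with the median effect of the 41 between -0.70 and -0.42. Testing all 18193 genes without the filter on SD left 0 of the 41 called, while 884 of all genes were called. Treating the density pair as a block left 5 of the 41 and 1908 of 11812 genes, a smaller share of the 41 than of all genes. The medians of the 41 were -0.65 and -0.70. RNA measures moved with the agent in A: the Gapdh 3' minus 5' difference was -0.027 to 0.03 on controls and 0.04 to 0.166 with MMP3, and the 18S probe set was 0.454 to 0.828 and 0.916 to 1.148. The actin difference overlapped between the agents, at -0.145 to 0.093 with MMP3 and -0.049 to 0.11 without. Cell type markers moved too. In A the epithelial genes Epcam and Cdh1 rose by 1.21 and 0.88 and the basal keratin Krt5 fell by 1.05 (limma adjusted p = 0.0146, 0.0161 and 0.0154), while Krt14 (-0.48), Pdgfra (-0.72), Dcn (-0.02), Cd68 (-0.48), Csf1r and Fabp4 did not pass. In B none of the 9 markers tested passed, with the largest effects in Cd68 (1.92) and Pdgfra (1.52). Cd68, a macrophage and lysosome gene, was at 1.84 on the control array of A at 250K and at 4.61 and 1.82 on the B arrays labelled MMP3 100K and 250K. Csf1r, the other macrophage marker tested, was at -0.005, 0.035 and -0.012 on these 3 arrays. Krt14, a basal keratin, was at -0.11, -3.93 and 1.06 on them, and Dcn at -0.003, 0.02 and 0.96. Pdgfra was at 2.15 and 1.24 on the first and second of these 3 arrays. It lay between these values on the third, MMP3 250K of B, and on the B array labelled MMP3 25K. The part of these RNA measures and markers in the results was not tested.

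In experiment B by label no gene of the 41 passed. Taking all 8 arrays, limma called 0 of 41 (0.0% of all genes tested), with 6 of the 41 and 12.1% of all genes at an unadjusted p under 0.05, a median effect of -0.25 and 33 negative effects. Without the array labelled MMP3 100K it again called 0 (0.0% of all genes), while the median was -0.65, 39 effects were negative and 24 of the 41 had an unadjusted p under 0.05, as did 18.9% of all genes. Without the array labelled MMP3 250K, and with MMP3 100K kept, the median was 0.22 and 12 effects were negative. With MMP3 100K kept, the sign of the group's median in B thus turned with the array labelled MMP3 250K. No fit to B left out both arrays. Without the 4 arrays on which Ifit1 lay against the label, and with no product term, 0 were called and all 41 effects were negative with a median of -0.75. Those 4 arrays were chosen on a gene measured in the same dishes, so that value is not independent support.

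**Figure D2:**
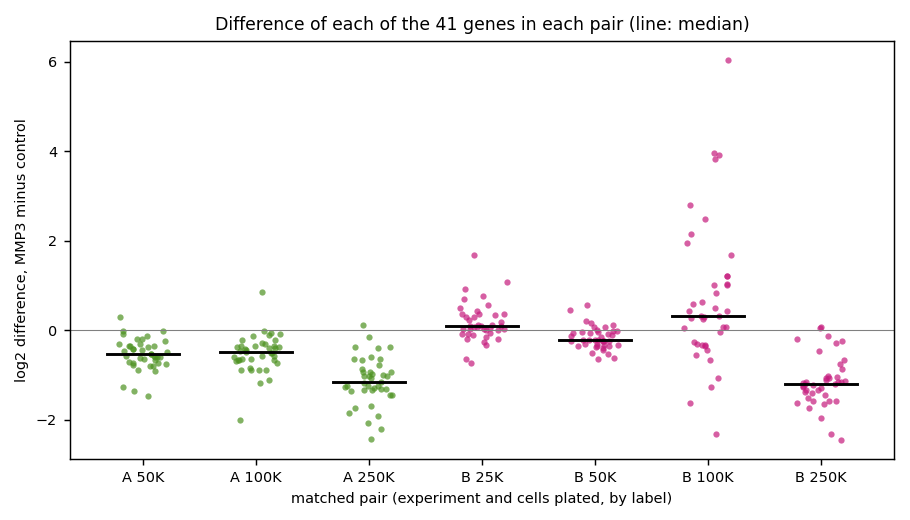
Each point is 1 of the 41 genes, placed by its log2 difference between the MMP3 and the control array of 1 experiment and density, and lines are medians. The 3 pairs of A have medians of -0.53, -0.49 and -1.15, while in B the median is 0.09 at 25K, -0.21 at 50K, 0.31 at 100K and -1.20 at 250K.

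Pair by pair, B was not uniform. At 250K 39 of 41 genes were lower on the MMP3 array and 34 of them by at least 0.5, at 50K 33 were lower but only 4 by that much, and at 25K and 100K 12 and 13 were lower. Over all genes the share lower in these pairs was 43.0% at 250K, 53.6% at 50K, 47.6% at 25K and 47.6% at 100K. Aurkb was at 0.36, -0.53, 0.40 and -0.36 on the controls of B and 0.66, -0.38, 0.70 and -1.81 on its MMP3 arrays. Control 50K and control 250K were thus the low controls, and MMP3 25K and MMP3 100K the high MMP3 arrays, which are the 4 arrays on which Ifit1 lay against the label. Over the 41 genes the median was 0.30, -0.06, 0.23 and -0.12 on the controls of B, and 0.40, -0.29, 0.46 and -1.37 on its MMP3 arrays. The arrays with high Ifit1 in B were those with a median below 0 in these genes.

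**Figure D3:**
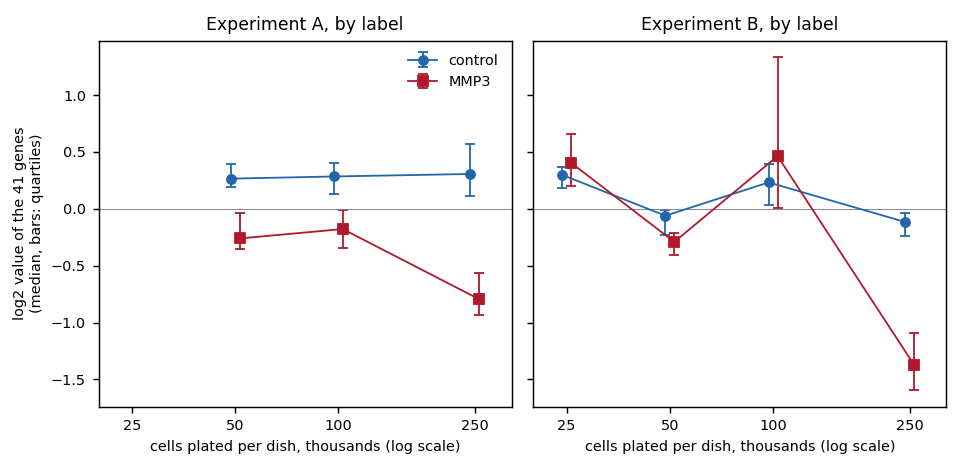
Points are the median log2 value of the 41 genes on each array and bars run between the quartiles, against cells plated on a log axis, with control in blue and MMP3 in red. The controls of A stay between 0.27 and 0.31 and its MMP3 arrays between -0.80 and -0.18, while the labels of B cross.

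By the probe sets chosen, Zwilch, Trip13, Tpx2, Kif4 and Cdkn3 were lower in 7 of 7 pairs, as were 3.99% of all genes, and Bub1 as well in 4 of 4 pairs of B. For Tpx2 and Trip13 this did not hold by every probe set. Another probe set of Tpx2 was at 0.13 on the control and 0.91 on the MMP3 array of B at 100K, and another of Trip13 at -0.28 and 0.03 at 50K of B. Zwilch, Kif4 and Cdkn3 have a single probe set each. By the probe set chosen, only Tpx2 of the 41 had groups that did not overlap in B, against 10.6% of all genes, at 0.34, 0.28, 0.04 and -0.04 on controls and -0.40, -0.26, -1.22 and -1.62 with MMP3. Cdkn3 was at 0.46, -0.02, 0.25 and 0.02 on the controls of B and 0.12, -0.26, -0.82 and -1.15 on its MMP3 arrays. Kif4 was at 0.32, -0.01, -0.02 and 0.07 on those controls and 0.06, -0.25, -0.28 and -1.88 with MMP3. In these 3 genes the array labelled MMP3 100K lay on the low side, whereas 31 of the 41 were above 0 there. Cenpk ran the other way from A: it was at 0.05, -0.31, 0.67 and -0.11 on the controls of B and 1.72, -0.21, 4.59 and -0.05 on its MMP3 arrays, higher in 4 of 4 pairs. Whether the effect of MMP3 differed between A and B was tested on the 12 arrays at shared densities, and the difference was called for 0 of 41 genes by limma (0.0% of all genes; 2 of 41 and 10.9% of all genes at an unadjusted p under 0.05). Without the array labelled MMP3 100K it was also called for 0 (0.0% of all genes; 3 of 41 and 12.4% of all genes unadjusted). Both unadjusted counts were below the share over all genes.

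Over all 14 arrays, with the experiment as a block, 4 of the 41 fell and 0 rose (limma), against 2.75% of all genes called and 1.41% called lower. They were Trip13 (effect -1.02, SE 0.22, adjusted p = 0.0400), Cdkn3 (-0.70, SE 0.09, adjusted p = 0.0286), Kif4 (-0.66, SE 0.15, adjusted p = 0.0489) and Kntc1 (-0.48, SE 0.10, adjusted p = 0.0353). The median of the 41 was -0.46. Only Cdkn3 was also among the 11 called in A, whose arrays are part of this fit.

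Without the array labelled MMP3 100K, 26 of the 41 fell and 0 rose, against 10.9% of all genes called and 5.16% called lower. All 41 effects were negative, from -0.93 to -0.06, with a median of -0.65 against 0.00 over all genes. The called genes were 3 of 4 mitotic kinases, 4 of 4 of the passenger complex, 5 of 8 checkpoint genes, 4 of 8 kinetochore genes, 3 of 4 motor and assembly genes, 3 of 7 cytokinesis genes, 3 of 4 of mitotic exit, and Top2a. Cdkn3 had the smallest adjusted p (effect -0.67, SE 0.08, limma adjusted p = 0.00977), and Plk1 (-0.66), Ndc80 (-0.49), Nuf2 (-0.64) and Zwilch (-0.68) each had a limma adjusted p of 0.0129 to 0.0130. The largest effects were those of Aurkb (-0.93, SE 0.24), Cenpf (-0.90, SE 0.22) and Trip13 (-0.87, SE 0.16). Of the 11 called in A, 8 were called here too, and Bub1b, Espl1 and Spc24 were not (limma adjusted p = 0.0639, 0.0728 and 0.123).

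**Figure D4:**
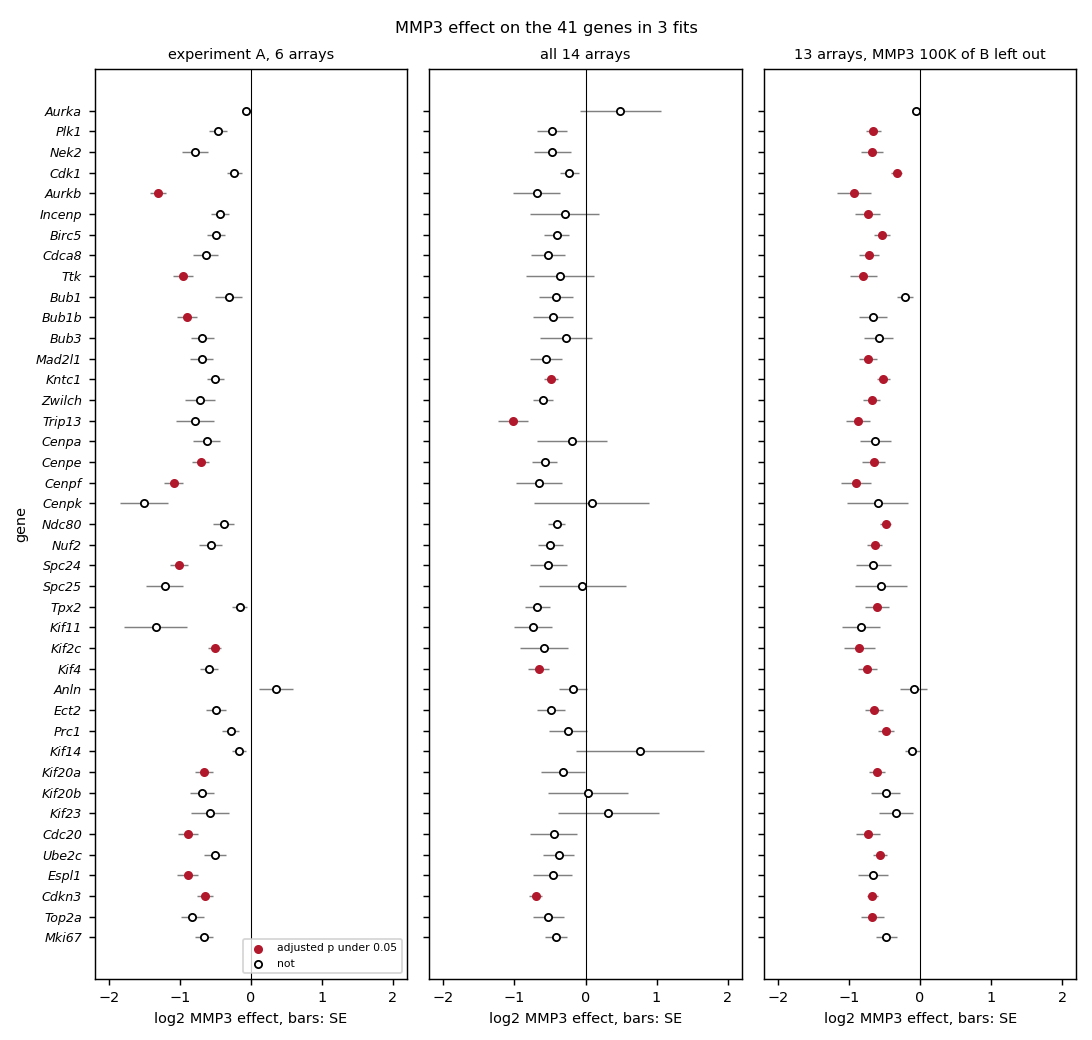
Points are log2 MMP3 effects with bars for 1 SE, filled where the limma adjusted p is under 0.05, in experiment A, over all 14 arrays and over 13 arrays. The number of filled points is 11, 4 and 26, and in the right panel all 41 effects lie below 0.

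These counts leaned on single dishes. Of the 13 arrays, leaving out the B array labelled MMP3 250K as well left 4 of the 41 called, and 178 of 11812 genes. Leaving out control 25K, MMP3 50K or control 100K of B left 12, 13 and 14, with 310, 503 and 588 of all genes. Leaving out control 100K, control 50K or MMP3 50K of A left 14, 15 and 16, with 465, 483 and 586 of all genes. With all 14 arrays, 0 of 41 and 0 of all genes were called without control 50K, control 100K, MMP3 50K or MMP3 250K of A. The same held without control 25K, control 100K, control 250K, MMP3 25K, MMP3 50K or MMP3 250K of B. Without the 4 arrays of B on which Ifit1 lay against the label, chosen as above, 35 of 41 were called lower and 4614 of 11812 genes were called in all.

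Between sparse and dense control dishes these genes went both ways. From 50K to 250K the median difference of the 41 was 0.08 in the controls of A, with 17 genes lower and 24 higher, from -0.98 for Trip13 to 1.58 for Cenpk. In the controls of B it was 0.01 with 20 lower and 21 higher, from -0.52 for Kif11 to 0.53 for Incenp. The sparsest control dish, 25K of B, had a median of 0.30 over the 41 genes, against -0.12 on the 250K control of B. The 50K and 250K controls of B were among the 4 arrays with Ifit1 against the label, and the 25K control was not. The 100K control of B, where Ifit1 was also low, had a median of 0.23. The 25K and 250K controls of B thus differed both in density and in the side of Ifit1. Where Ifit1 was low the median was 0.30 at 25K and 0.23 at 100K. Where it was high the median was -0.06 at 50K and -0.12 at 250K. The part of density and of the side of Ifit1 in these values was not tested. On the MMP3 arrays the same step gave -0.54 in A with 39 lower and -1.05 in B with 40 lower. The median over all genes was between -0.02 and 0.02 in these 4 steps. By the probe sets chosen, Kif2c had the largest step on the MMP3 arrays of B, from -0.61 to -2.64. Its controls went from 0.04 to -0.20. Its other probe sets went from -0.36 to -1.175, from -0.01 to -0.445 and from -0.02 to -0.28 on those MMP3 arrays. A probe set of Kif23 that was not chosen went from -0.93 to -3.07. Ttk had the largest by the probe sets chosen on the MMP3 arrays of A, from -0.26 to -1.24, and its controls went from 0.33 to 0.68. By its other probe set Ttk went from -0.195 to -0.77 on those MMP3 arrays and from 0.27 to 0.15 on the controls. The array labelled MMP3 250K was the lowest of A for 37 of the 41 and the lowest of all 14, in B, for 34.

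No density slope passed the test. Limma called 0 of 41 in A (0.0% of all genes), with a median of -0.10 per doubling of plated cells and 34 negative slopes. An unadjusted p under 0.05 was found for 7 of the 41 in A, a smaller share than the 29.7% of all genes. In A the median was 0.03 with 13 negative when the array labelled MMP3 250K was left out, and -0.22 without MMP3 50K. In B limma called 0 (0.0% of all genes; 10 of 41 and 3.98% of all genes unadjusted), and 0 without the array labelled MMP3 100K (0.0% of all genes; 35 of 41 and 11.5% of all genes unadjusted), with medians of -0.25 and -0.32. The median in B was -0.01 without the array labelled MMP3 250K. Over all 14 arrays 0 were called (0.0% of all genes; 19 of 41 and 11.5% of all genes unadjusted, median -0.21), and over 13 arrays 0 (0.0% of all genes; 34 of 41 and 19.7% of all genes unadjusted, median -0.24). Without the B array labelled MMP3 250K the median over the other arrays was -0.13 with 33 negative slopes. Without the 4 arrays on which Ifit1 lay against the label, 15 of 41 slopes were called, all negative, among 2928 genes called in all. The product of agent and density, which asks whether the slope differed between agents, was called for 0 of 41 by limma (0.0% of all genes; 10 of 41 and 1.93% of all genes unadjusted), with 38 negative values and a median of -0.34. That median was -0.19 without the B array labelled MMP3 250K.

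The array labelled MMP3 100K of B split the group. Of the 41 genes 31 lay above 0 there, 13 of them above 1, and 4 lay below -1. Values of all genes were also widely spread in this dish (SD 1.29, median 0.01). How many of all genes lay above 0, above 1 or below -1 was not counted. Whether the split is particular to the 41 was therefore not tested. Kif14 was at 6.04, Cenpk at 4.59, Kif23 at 4.36 and Aurka at 3.82. Trip13 was at -1.76, Bub1 at -1.65, Tpx2 at -1.22 and Anln at -1.01. The control dish at the same density in B was at 0.00 for Kif14, 0.67 for Cenpk, 0.40 for Kif23 and 0.00 for Aurka.

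Probe sets of 1 gene disagreed on that array. Aurka, the centrosomal Aurora kinase, was represented by a probe set that stayed between -0.07 and 0.07 on the other 13 arrays, and its SD was 0.047 without that array, below the filter of 0.049. Its other probe set was at 0.08, 0.12 and 0.27 on the controls of A, -0.14, -0.14 and -0.85 on its MMP3 arrays, 1.30 on the B array labelled MMP3 100K and -1.61 on MMP3 250K. Kif23 was at 4.36 on that array by the probe set chosen and at 0.54 and 0.56 by its other probe sets. Bub1, the checkpoint kinase, was at -1.65 by the probe set chosen and at -0.14 by its other one. Anln was at -1.01 by the probe set that represented it and at 0.48 by its other one, which was also lower with MMP3 in A by 0.47 as a difference of means where the first was higher by 0.26. Tpx2 was at -1.22 by the probe set chosen and at 0.91 by the next most variable one. Kif14 had a single probe set, which was within -0.12 to 0.06 apart from 0.64 on the control array of A at 250K and the value on that array.

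**Figure D5:**
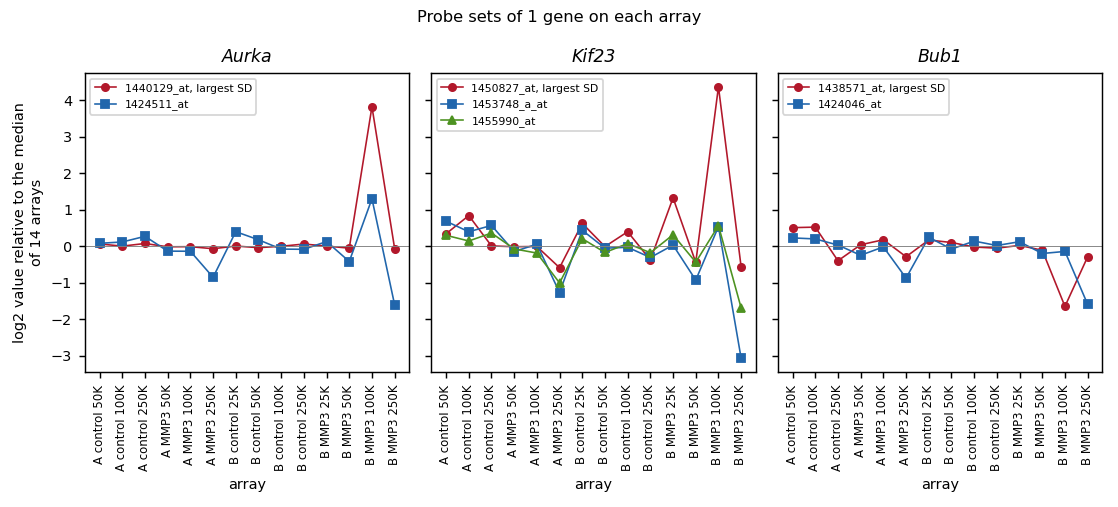
Lines join the log2 values of each probe set of Aurka, Kif23 and Bub1 over the 14 arrays, with the one of largest SD in red. The probe sets part on the B array labelled MMP3 100K, where Aurka reads 3.82 and 1.30.

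The choice of probe set by SD was therefore sensitive to 1 array. Of the 41 genes 24 had more than 1 probe set, and for 7 of them (Anln, Aurka, Bub1, Kif20b, Kif23, Prc1 and Trip13) another would have been chosen without that array. With the choice made that way, 13 of the 41 were called in A and 30 over 13 arrays. Over all genes 2548 and 1372 of 11781 were called. Of 89 probe sets for the 41 genes 84 passed the filter on SD, and 81 of these had a lower mean on the MMP3 arrays of A. The 3 exceptions were 1 each for Anln, Bub3 and Tpx2.

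Across the arrays the genes moved largely together. The median Pearson r over the 820 pairs of members was 0.77 over 14 arrays and 0.84 over 13 without the array labelled MMP3 100K, where the median over all gene pairs was 0.00 both times. Of the member pairs 44.8% and 59.5% had an r above 0.8, against 4.3% and 3.2% of all gene pairs. Mad2l1 and Nuf2 had the highest r over 13 arrays, 0.99. By the probe sets chosen, r against the median of the other members over 13 arrays was lowest for Kif14 (0.37), Bub1 (0.50), Cenpk (0.58) and Anln (0.59). On the B array labelled MMP3 250K, Bub1, Cenpk and Anln were at -0.29, -0.05 and -1.09 by these. By their other probe sets Bub1 was at -1.59, Cenpk at -0.46 and -1.23, and Anln at -1.52 there. For the other probe sets r was not computed. The points share the same 14 dishes, agents and densities, so these values describe the arrays and are not tests.

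Other genes of the division program were read from lists of textbook members. In A, where 8.34% of all genes fell, 7 of 20 cohesin and condensin genes fell and 0 rose (limma, adjusted p under 0.05), with a median of -0.63, led by the condensin subunits Smc2 (-1.90) and Ncapd2 (-1.09) and the cohesin protector Sgo1 (-0.86). Of 29 further centromere and kinetochore genes tested, 8 fell and 1 rose. The largest falls were those of Cenpm (-1.31), Ska1 (-1.20), of the complex that tracks microtubule ends, and Oip5 (-1.09), which is needed to load Cenpa. Zwint, which binds the checkpoint complexes, was the 1 that rose, by 0.69; it is named by its count and was chosen after its value was seen. Of 43 further spindle, motor and centrosome genes 10 fell and 0 rose, led by Hmmr (-1.30), Kif22 (-1.02) and Bora (-0.93), an activator of Plk1.

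Of 8 mitotic cyclins and entry regulators tested, 2 fell in A: the phosphatase Cdc25b (-1.34) and cyclin Ccnb2 (-0.86). Ccna2, the S phase and G2 cyclin, had an effect of -0.79 that did not pass (limma adjusted p = 0.0756), and Ccnb1 is not analysed here. Of 13 transcription factors of these genes tested, 3 fell, Rbl1 (-1.68), Lin54 (-0.70) and Nfyb (-0.57), the first and second being DREAM components and the last a subunit of NF-Y. Foxm1 and Mybl2, which drive G2 and mitosis genes, had effects of -0.43 and -0.46 (limma adjusted p = 0.185 and 0.134). Over 13 arrays both were called, at -0.69 and -0.82 (limma adjusted p = 0.0242 and 0.0412). Of 15 subunits and partners of the anaphase-promoting complex, most of them made throughout the cell cycle, 1 fell (Anapc5, -0.52) and 1 rose (Cdc26, 0.58), with a median of -0.06 and counts near the share over all genes. Over 13 arrays, where 5.16% of all genes were called lower, the counts called lower were 7 of 20, 18 of 29, 22 of 43, 4 of 8, 4 of 13 and 1 of 15 in the order of these lists, the last again near that share, and 0 were called higher in any of them.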

How the data were processed

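The authors deposited 1 table of log2 expression values for the series; per the submitters' processing notes the method was RMA, with no version. The sources used here give no other step and no log base, and log2 is the base RMA gives. The median of each of 45101 probe sets over the 14 arrays was 0 within 1e-06, a centring seen in the values. Depth does not apply to arrays, whose number limits the precision, and signal over background was not used here.

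Agent, density and experiment came from the labels. Platform annotation gave 34945 of 45037 non-control probe sets a single symbol, 932 several and 9160 none, and only the first kind was used. Genes were tested where the SD of their probe set was at or above the 40th percentile (0.049), which left 11812. Models were fitted with limma 3.58.1 under R 4.3.3 (lmFit, then eBayes; Benjamini-Hochberg over all genes tested, threshold 0.05), with agent, centred log2 density and their product, and the experiment as a block where both were fitted. Scripts ran in Python 3.11.15 and were tested on simulated data. The labels name the letters as separate experiments, which is where the pairing comes from. Deviations from group means of arrays of 1 experiment correlated at 0.058 on average (-0.67 to 0.65 over 30 pairs). Each group used held 1 array of A and 1 of B, so the deviations in B mirrored those in A. Each correlation thus counts once for A and again for B, and the value cannot tell the experiments apart.

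The members, gene lists and tests were chosen with earlier results of these data known, so none is independent of them. By the rule for named genes, up to 3 members of each role with the largest effect in A are given array by array. The other members and up to 3 called genes of each other list are given by their effect, as are Foxm1, Mybl2, Ccna2 and Pcna whatever their result, and Ifit1 by its arrays. Alternatives were averaging the probe sets of a gene, other filters, quantile normalization, robust eBayes, an additive model, other blocks and leaving out each array. The probe set chosen without the B array labelled MMP3 100K, centring on 1 experiment and leaving out the 4 arrays with Ifit1 against the label were added after seeing the data.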

Additional observations from a re-analysis of the deposited data

Results flagged for a closer look

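By the probe set chosen, Cenpk was lower on the MMP3 array in 3 of 3 pairs of experiment A and higher in 4 of 4 pairs of experiment B, so every pair of one experiment ran against every pair of the other. Its MMP3 effect in B minus that in A was 3.08 (SE 1.70, limma adjusted p = 0.460) and 1.504 without the B array labelled MMP3 100K (SE 0.61, limma adjusted p = 0.395). The difference did not pass the test. Its other probe sets did not share the pattern in every pair. One had a difference of means between MMP3 and control arrays of -1.08 in A and 0.08 in B, but went from -0.27 on the control to -1.23 on the MMP3 array at 250K of B. The other had -0.44 in A and 0.67 in B, but went from -0.07 to -0.33 at 50K and from 0.28 to -0.46 at 250K of B.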

How the results depend on the processing

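The count of genes called lower in experiment A was 11. It was 21 when the probe sets of a gene were averaged, 23 with the 60th percentile of SD as the filter and 0 without that filter. Over all genes, called in either direction, these settings gave 2810 of 11241, 3020 of 8857 and 884 of 18193, against 2425 of 11812. The count was 19 with density centred within the experiment and 5 with the density pair as a block, with 2960 and 1908 of all genes. It was 0 without any 1 array, as over all genes. Over all 14 arrays the count was 4, with 325 of 11812 genes called. It was 7 with the mean of probe sets, 2 without the filter and 0 with the 60th percentile, with 401 of 11241, 206 of 18193 and 2 of 8857. It was 2 in the additive model, 0 without the replicate block and 35 without the 4 arrays with Ifit1 against the label. Over all genes these gave 381, 0 and 4614. Leaving out 1 array gave 0 to 26, and 0 to 1287 over all genes. Over 13 arrays the count was 26, and 17 without the filter, 8 in the additive model and 13 without the replicate block. Over all genes these were 1287, 832 of 18193, 1111 and 486. With 1 more array left out the count was 4 to 29, and 178 to 1948 over all genes. Density slopes over all arrays were called for 0, and for 15 without the 4 arrays, with 0 and 2928 of all genes. Counts for experiment B, for the slopes within A and B, for the product and for the difference between experiments were 0 under every alternative run. No called gene changed direction under an alternative run. Quantile normalization, robust eBayes and the probe set chosen without the B array labelled MMP3 100K kept each count within 1.5 times. Apart from the smaller number of arrays or the other number of genes tested, the cause of these changes was not tested.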

Other observations

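DNA replication genes, which are transcribed earlier in the cell cycle, did not follow the spindle genes on every array. Over 31 replication genes the median was 0.53, 0.49 and -0.01 on the controls of A at rising density, where the 41 spindle and kinetochore genes had 0.27, 0.28 and 0.31. On the B array labelled MMP3 100K the replication genes had a median of -0.79 and the spindle genes 0.46. On the B array labelled MMP3 25K these values were -0.11 and 0.40. Both groups were lowest on the B array labelled MMP3 250K, at -1.57 and -1.37. In the fit to A, 7 of 31 replication genes fell and 0 rose (limma, adjusted p under 0.05), against 8.34% of all genes called lower, led by Pold1 (-1.21), Rfc4 (-0.99) and Tyms (-0.83), and over 13 arrays 23 fell, against 5.16% of all genes. Pcna, the sliding clamp, had an effect of -0.08 in A (limma adjusted p = 0.697) and was at -1.41 on the B array labelled MMP3 100K.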
